A study of Ovis aries with 2 samples.

Results

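The miR-15/16 and miR-424 family is the set of microRNAs (miRNAs) that share the seed of miR-16, the short stretch near the 5′ end that pairs with target mRNAs. Its members were found by name, as the mature sequences whose precursor is mir-15a, mir-15b, mir-16a, mir-16b, mir-195, mir-424 or mir-497. Of these 7 precursor names, 5 had a mature sequence listed in at least 1 library, out of 81 mature miRNAs listed in all, and mir-195 and mir-497 had none. The rule used names only, not counts, though it was set with earlier results of these data known. Small RNA was sequenced from extracellular vesicles, the membrane-bound particles that cells release, isolated from uterine luminal fluid (ULF) of day 14 Rambouillet ewes. The pregnant library came from 4 ewes mated to an intact ram at estrus and the cyclic library from 4 cyclic ewes, their RNA pooled before sequencing. A single pool per status has no replicates and hides the spread between ewes, so a ratio here compares pools rather than pregnancy status, and no test was made. Vesicles were precipitated from a filtered uterine flush, so the cells they came from are not identified, and fewer vesicles and less miRNA per vesicle cannot be told apart.

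miRNAs of this family slow the cell cycle and favour apoptosis in many mammalian tissues, where they repress cyclins such as CCND1 and CCNE1 and the survival factor BCL2. The genes lie in pairs. In humans mir-15a and mir-15b are each transcribed with a copy of mir-16, mir-195 with mir-497, and mir-424 with mir-503 on the X chromosome. miR-16 is also abundant in red blood cells, and miR-424 is known from monocyte maturation and from endothelial cells in hypoxia. Of the 7 names, the sheep annotation (ARS-UI_Ramb_v3.0) held 1 gene of the same name, MIR16B, which lies within the span of SMC4, the gene of a condensin subunit.

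The mature sequences of the 5 listed members are shown because mir-16a and mir-16b are near-identical while mir-424 starts with another base. The sequences are those of cattle because the reads were compared with cattle miRNAs. They are written 5′ to 3′ with T for U, and the capitals mark the seed, bases 2 to 8.
mir-15a: tAGCAGCAcataatggtttgt
mir-15b: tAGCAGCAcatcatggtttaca
mir-16a: tAGCAGCAcgtaaatattggtg
mir-16b: tAGCAGCAcgtaaatattggc
mir-424: cAGCAGCAattcatgttttga

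The seed AGCAGCA was the same in the 5 members, and no other of the 81 listed miRNAs had it at bases 2 to 8. mir-16a and mir-16b were identical over their first 20 bases and differed among the 21 they can be compared over by T21C, with positions counted from 1 at the 5′ end and the base of mir-16a first. mir-15a and mir-15b were identical over the first 11 bases and at 18 of 21 positions, with the differences A12C, G20A and T21C, the base of mir-15a first. mir-424 had no partner as close as these pairs. It matched mir-15a and mir-15b at 15 of 21 positions and mir-16a and mir-16b at 12 of 21. mir-15a matched mir-16a at 16 and mir-16b at 15 of 21 positions. mir-15b matched mir-16a at 13 of 22 and mir-16b at 14 of 21. The members were 21 or 22 bases long with 38.1 to 42.9% G and C.

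The pregnant library held 122 counts of the family and the cyclic library 455. A count is the number of reads that the authors' software grouped under a mature miRNA, and groups of under 10 reads are listed as 0. Over all listed mature miRNAs the pregnant library reached 2809 counts from 119605 reads, and the cyclic library 7921 counts from 94735 reads. The family therefore made up 4.34% of the mature miRNA counts in the pregnant library (exact Clopper-Pearson 95% interval 3.62 to 5.16%) and 5.74% (5.24 to 6.28%) in the cyclic library. Because mir-15a and mir-15b can have up to 9 copies each in the pregnant library, the share of the 5 listed members could be as high as 4.98% (4.21 to 5.85%). Any copies of mir-195 and mir-497 below the minimum are not part of this limit. PCR copies cannot be recognised in these reads, which carry no molecular identifiers, and all intervals here cover counting error only.

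mir-16b and mir-16a, the products of the miR-16 genes, had the highest total counts of the family, most of them reads that the pair shares. mir-16b had 56 counts in vesicles of pregnant and 185 in vesicles of cyclic ewes, which made it the 18th and the 12th most abundant miRNA. These counts are 1.99% (1.51 to 2.58%) and 2.34% (2.01 to 2.69%) of the mature miRNA counts. mir-16a had 51 and 158 counts, 1.82% (1.35 to 2.38%) and 1.99% (1.70 to 2.33%), at ranks 21 and 18. Since the shared reads bring their totals together, the levels of mir-16b and mir-16a within a library are not compared by these totals. Together they were 107 of the 122 family counts in the pregnant library and 343 of 455 in the cyclic library, 75.4% (71.2 to 79.3%). The share in the pregnant library, among the 5 listed members, lay between 76.4%, with mir-15a and mir-15b at 9 copies each, and 87.7%, with them at 0. These are upper values if a shared read was counted under both names. With such reads counted once, the pair would hold 65 of 80 family counts in the pregnant library and 205 of 317 in the cyclic library. The family would be 2.89% (2.30 to 3.59%) and 4.07% (3.64 to 4.54%) of the mature miRNA counts. In these totals only the shared reads of this pair, not those of other miRNAs, were counted once. The pregnant values set mir-15a and mir-15b at 0. Up to 9 copies of each would raise the pregnant share, so these shares are not read as a difference.

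mir-424, of the mir-424/mir-503 cluster, had 15 counts in vesicles of pregnant and 66 in vesicles of cyclic ewes, 0.534% (0.299 to 0.879%) and 0.833% (0.645 to 1.06%) of the mature miRNA counts. By total counts it lay below mir-16a in both, with mir-16a counts 3.40 times those of mir-424 (exact conditional binomial 95% interval 1.88 to 6.51) among pregnant and 2.39 times (1.79 to 3.24) among cyclic counts. This order is that of the totals. Among reads assigned to 1 precursor, mir-424 had 15 and 66, mir-16b 13 and 47, and mir-16a 9 and 17, so that mir-424 was first in both libraries. No interval was computed for this order, and 15 against 13 is a small difference. These reads leave out those that mir-16a and mir-16b share, so this order does not rank the levels either. mir-503, the cluster partner of mir-424, has a row in 1 of the deposited tables but was listed at 0 in both libraries, which allows up to 9 copies. mir-542, mir-450a and mir-450b, further miRNAs of this cluster, had no row, nor did mir-322 and mir-351, as the rodent counterparts are called. mir-424 was thus the single product of its cluster at 10 or more copies.

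mir-15b and mir-15a, the partners of the miR-16 genes, were listed for cyclic ewes only. mir-15b had 30 counts in the cyclic library, 0.379% (0.256 to 0.540%) of its mature miRNA counts, and at most 9 in the pregnant library, at most 0.320%. mir-15a had 16 counts in the cyclic library, 0.202% (0.116 to 0.328%), under the same limit of 9 copies in the pregnant library. In the cyclic library mir-424 lay above mir-15b by 2.20 times (1.41 to 3.51), while mir-15b and mir-15a could not be told apart (1.88, 0.990 to 3.68). At their cyclic shares, the pregnant library would hold 10.6 copies of mir-15b and 5.67 of mir-15a, close to and below the minimum of 10 copies. Being unlisted is therefore no sign of absence from vesicles of pregnant ewes. Of all 81 miRNAs, 27 were listed for cyclic ewes only.

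**Figure D1:**
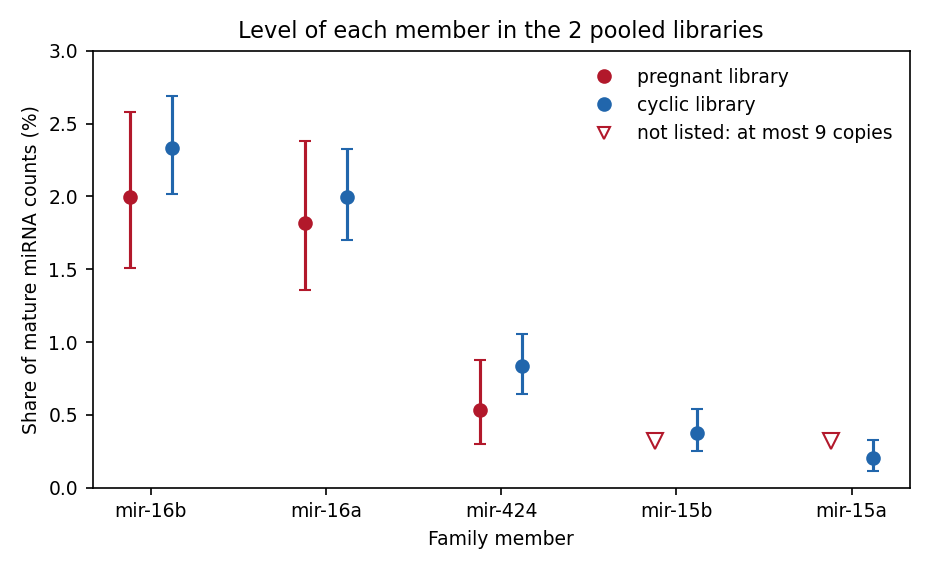
Share of mature miRNA counts (vertical axis, percent) of each member in the pregnant (red) and cyclic (blue) library, with exact 95% intervals as bars and open triangles at 9 copies, the limit for a member that is not listed. The intervals of the libraries overlap for mir-16b, mir-16a and mir-424, and mir-15b and mir-15a have a point in the cyclic library only.

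Relative to total mature miRNA counts no member could be told from equal between the libraries. The ratio of pregnant to cyclic shares was 0.910 (0.650 to 1.26) for mir-16a, 0.854 (0.621 to 1.16) for mir-16b and 0.641 (0.340 to 1.13) for mir-424. All 3 ratios were below 1 and all 3 intervals included 1. For mir-15b the ratio was at most 0.846, with an interval of 0.353 to 1.83 at this limit. For mir-15a the limit of 9 copies gives a ratio of at most 1.59 (0.618 to 3.81), so the ratio itself could lie on either side of 1. A call of lower at this limit needed 52 cyclic counts, which neither mir-15a nor mir-15b had. Of the 5 members, 0 were called higher or lower, that is with an interval excluding 1 and a difference of at least 2-fold, beside 7 of the 81 miRNAs, 8.64%. Without the 2-fold criterion 0 of the 5 had an interval excluding 1, against 21% of the 81. With 5 members a count of 0 cannot be told from these background shares.

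Summed over mir-16a, mir-16b and mir-424, the members listed in both libraries, the pregnant library had 122 counts and the cyclic library 409, a ratio of 0.841 (0.681 to 1.03). The median log2 ratio of the 3 members was -0.23, beside a median of 0.22 over the 53 miRNAs listed in both libraries, of which 21 had a ratio below 1. The median of the 53 is raised by the minimum of 10 copies, because a miRNA with 28 or fewer cyclic counts, as 8 of the 53 had, is listed in both only with a ratio above 1. Over all 50 miRNAs with more than 28 cyclic counts, 5 of them unlisted in the pregnant library, the median was -0.02. In the order of these 53 from the lowest ratio, mir-424 was at position 3, mir-16b at 13 and mir-16a at 17, positions that the same minimum lowers. Scaled by the 53 miRNAs instead of by the total, the ratio of the family was 0.755 (0.612 to 0.927) with edgeR's TMM, which moves every log2 ratio by -0.16, and 0.720 (0.583 to 0.883) with DESeq2's size factors, which move it by -0.22. Both intervals lay below 1, on a set of miRNAs that the minimum selects. Over the 45 of the 53 with more than 28 cyclic counts the ratio was 0.784 (0.635 to 0.961) and 0.805 (0.652 to 0.988) in the same order, and by the median of the 50 miRNAs, unlisted included, it was 0.855 (0.692 to 1.05). These last 3 values were added after the data were seen. Other than with all reads, the scalings that gave an interval below 1 were thus those over miRNAs listed in both libraries, and these intervals are not read as a difference of the family. mir-16a and mir-16b share most of their reads, so their counts are not independent and the interval of the sum may be too narrow.

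**Figure D2:**
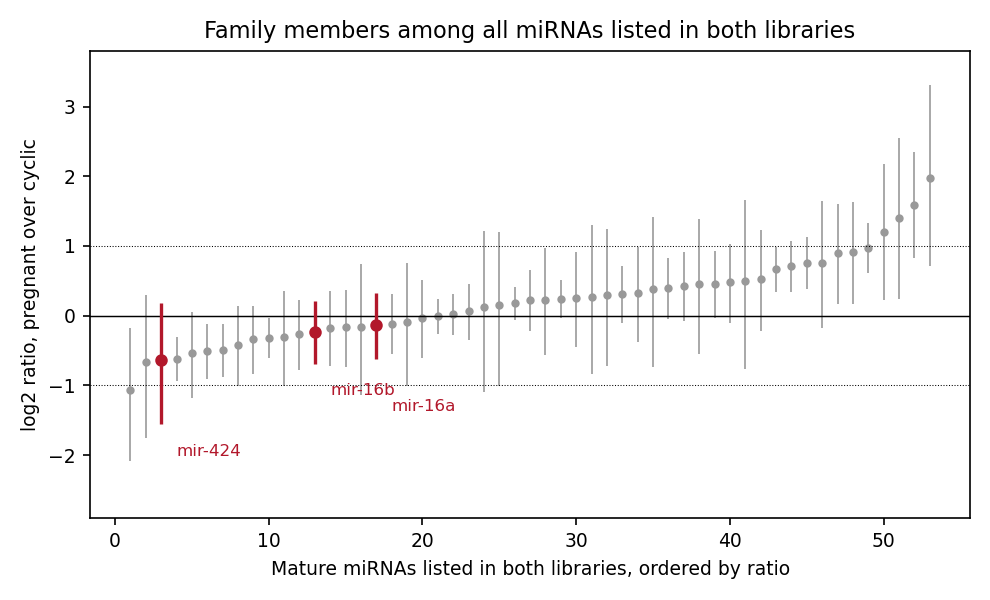
log2 ratio of pregnant to cyclic shares (vertical axis) for the 53 miRNAs listed in both, ordered by ratio, with exact 95% counting intervals as vertical lines, the family members in red and dotted lines at 2-fold. mir-424, mir-16b and mir-16a lie below 0 at positions 3, 13 and 17, and each of their intervals crosses 0. miRNAs with 28 or fewer cyclic counts can appear here only above 0.

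Relative to all reads of the library, annotated or not, the picture was another. Of 100 reads in the cyclic library 0.480 belonged to the family, and of 100 in the pregnant library 0.102. The ratios were 0.256 (0.183 to 0.353) for mir-16a, 0.240 (0.175 to 0.325) for mir-16b and 0.180 (0.0954 to 0.319) for mir-424. mir-15b had a ratio of at most 0.238 (0.0992 to 0.513 at this limit) and mir-15a of at most 0.446 (0.174 to 1.07). By this measure 4 of the 5 members were lower in the pregnant library. The same call was made for 58 of the 81 miRNAs, 71.6%, since this scaling moves every log2 ratio by -1.83, so it says nothing particular to the family.

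**Figure D3:**
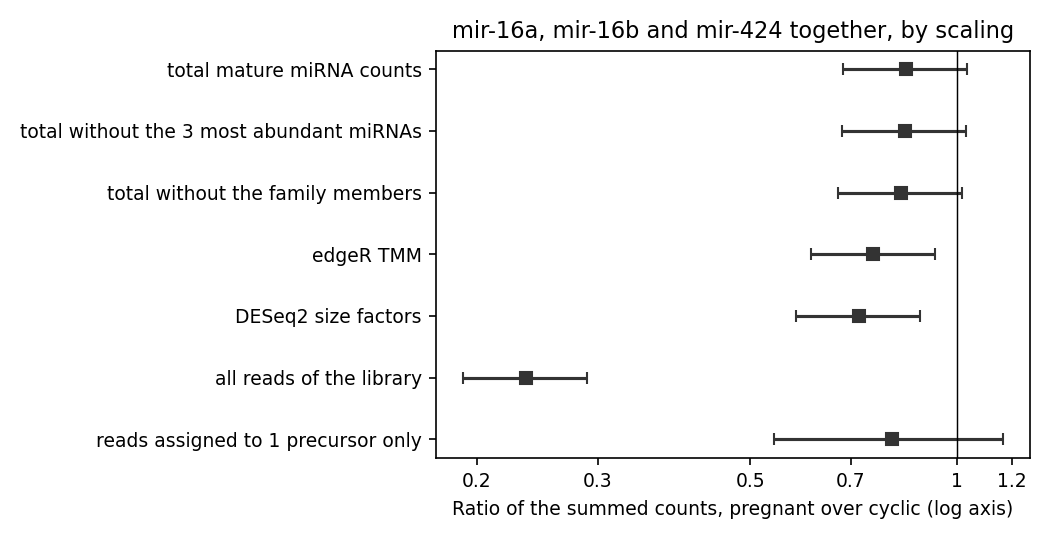
Ratio of the summed counts of mir-16a, mir-16b and mir-424 between the libraries, pregnant to cyclic (horizontal log axis) under 7 ways of scaling or counting, with exact 95% counting intervals. All squares lie below 1, the intervals of edgeR's TMM, DESeq2's size factors and all reads do not reach 1, and all reads gives 0.236 against 0.841 for total mature miRNA counts.

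The reads behind mir-16a and mir-16b were mostly not assignable to either alone. Of the mir-16a counts, 9 of 51 in the pregnant library (17.6%, 8.40 to 30.9%) and 17 of 158 in the cyclic library (10.8%, 6.39 to 16.7%) came from reads assigned to 1 precursor only. For mir-16b these were 13 of 56 (23.2%, 13.0 to 36.4%) and 47 of 185 (25.4%, 19.3 to 32.3%). The shared remainder was nearly equal for the pair, at 42 counts for mir-16a and 43 for mir-16b in the pregnant library and 141 and 138 in the cyclic library. How such reads were divided between the pair is not stated in the methods read here, so the near equality of the mir-16a and mir-16b totals cannot be read as a measurement of each gene. Among reads assigned to 1 precursor only, mir-16b had more than mir-16a in both libraries. Per mir-16b count there were 0.911 mir-16a counts in the pregnant library and 0.854 in the cyclic one, an odds ratio of 1.07 (exact conditional interval 0.674 to 1.69), and in the assignable reads 0.692 and 0.362, an odds ratio of 1.90 (0.601 to 5.87). Shared reads, nearly equal in number for the pair, pull the odds ratio of the totals toward 1. That odds ratio therefore cannot decide whether the proportion was equal in both libraries. The interval from assignable reads included 1.

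In contrast, the mir-424 reads were all assigned to its precursor only, 15 of 15 and 66 of 66. The same held for 29 of 30 mir-15b and 14 of 16 mir-15a counts of the cyclic library. Over the 76 other listed miRNAs, 76.8% (75.2 to 78.4%) of pregnant and 76.5% (75.5 to 77.4%) of cyclic counts were assigned to 1 precursor only. The family as a whole was lower, at 30.3% (22.3 to 39.3%) and 38.0% (33.5 to 42.7%), through mir-16a and mir-16b. Such low shares also occurred outside the family. There, 11 of 51 miRNAs listed for pregnant and 13 of 75 listed for cyclic ewes had under 25% of their counts so assigned. All counts were so assigned for 37 of the 51 and 55 of the 75, as for mir-424. With assignable reads alone over total mature miRNA counts, mir-16b had a ratio of 0.780 (0.387 to 1.47). mir-16a had one of 1.49 (0.586 to 3.54) from 9 and 17 reads, so that its direction turned.

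**Figure D4:**
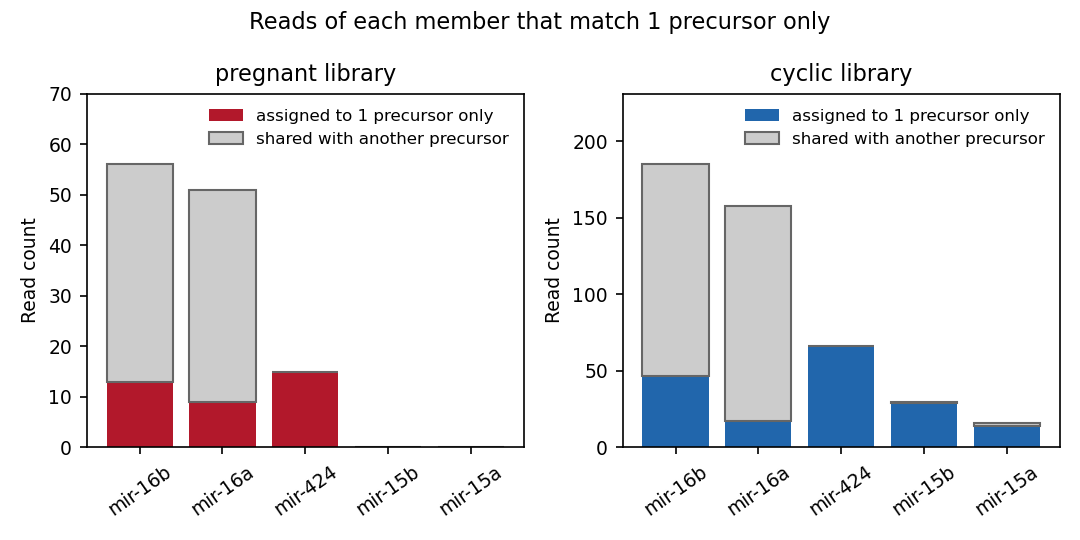
Read counts (vertical axis, on a different scale in each panel) of each member in the pregnant (left) and cyclic (right) library, with reads assigned to 1 precursor only in colour and reads shared with another precursor in grey. Grey makes up most of mir-16a and mir-16b in both libraries and nothing of mir-424.

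Members also differed in how many of their reads matched the cattle sequence exactly. mir-424 had 9 exact matches among 15 counts in the pregnant library (60.0%, 32.3 to 83.7%) and 40 among 66 in the cyclic library (60.6%, 47.8 to 72.4%). The pooled shares of the 76 miRNAs outside the family were 11.1% (9.96 to 12.4%) and 9.76% (9.10 to 10.5%), but they combine many miRNAs at 0 with some that are high. Of the miRNAs outside the family, 6 of 51 listed for pregnant and 6 of 75 listed for cyclic ewes had a higher share of exact matches than mir-424, among them mir-103 with 81.8 and 69.4% and mir-125b with 74.2 and 73.2%. mir-15b had 7 exact matches among 30 counts in the cyclic library, 23.3% (9.93 to 42.3%). mir-16a, mir-16b and mir-15a had 0 exact matches where they were listed, which for the 343 mir-16a and mir-16b counts of the cyclic library allows a share of up to 1.07% (exact upper limit). This limit takes the 343 counts as separate reads and would be higher if shared reads were counted under both names. Of the listed miRNAs, 41 of 54 for pregnant and 57 of 80 for cyclic ewes had 0 exact matches, so this is common in the table. Reads that are longer, shorter or mismatched against the reference count as inexact, and which of these applied to the members was not tested. By exact matches mir-424 was the single member counted in both libraries, with a ratio of 0.567 (0.242 to 1.19) over all exact matches.

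Another pair of listed miRNAs held the same 7 bases shifted by 1 position, at bases 1 to 7. They are shown because their seed, bases 2 to 8, differs from that of the family while their start does not, with the shared bases in capitals.
mir-103: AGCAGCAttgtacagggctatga
mir-107: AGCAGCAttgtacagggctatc

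With the 5 members these made 7 of the 81 listed sequences with AGCAGCA on the printed strand, 8.64%. mir-103, which acts with mir-107 on insulin signalling and on Dicer in other mammals, had 11 counts among pregnant and 49 among cyclic counts, a ratio of 0.633 (0.297 to 1.23). mir-107 had 10 and 20 counts and a ratio of 1.41 (0.589 to 3.16). At its 20 cyclic counts, a listing in the pregnant library by itself gave a ratio above 1. Neither was called.

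The miRNAs outside the family whose ratio lay closest to the 0.841 of mir-16a, mir-16b and mir-424 together were let-7f, mir-29b and mir-21, at 0.835 (0.585 to 1.17), 0.810 (0.497 to 1.28) and 0.803 (0.656 to 0.977). This likeness is a distance of 0.01 to 0.07 in log2 ratio over 2 libraries among 50 candidates, and a description only. Since miR-16 is abundant in red blood cells, the erythroid markers are given beside it. Of mir-451, mir-144 and mir-486 only mir-451 was listed, with 12 pregnant and 71 cyclic counts, a ratio of 0.477 (0.235 to 0.885), the lowest of the 53. Its part in the mir-16a and mir-16b counts was not tested. Of the 7 leukocyte miRNAs 2 were listed. mir-223, of myeloid cells, was listed for cyclic ewes only and called lower at its limit of 9 copies (at most 0.453, 0.197 to 0.923), while mir-342 had a ratio of 1.39 (0.934 to 2.05). The part of these in the family's counts was not tested either. The summed ratio of 7 listed of 8 epithelial miRNAs was 0.919 (0.820 to 1.03) with those unlisted in a library at 0 and 0.959 (0.858 to 1.07) with them at 9 copies. For 5 listed of 7 stromal, smooth muscle and vessel miRNAs the limits were 1.03 (0.758 to 1.37) and 1.46 (1.12 to 1.89), and for the leukocyte list 0.832 (0.572 to 1.19) and 1.01 (0.719 to 1.41). The epithelial sum joins members that went opposite ways. mir-200b (0.653, 0.522 to 0.810) and mir-200a (0.712, 0.543 to 0.924) lay below 1 and mir-200c (1.59, 1.27 to 1.97) above it. The other listed epithelial members had intervals that included 1.

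Within the family, mir-424 had the lowest ratio of the members listed in both libraries. Its odds against mir-16a and mir-16b summed were 0.729 times as high in the pregnant as in the cyclic library (0.371 to 1.36), a comparison chosen after the data were seen, and the interval included 1. The libraries could therefore not be told apart in the proportion of mir-424 to the miR-16 pair at this depth.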

How the data were processed

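Small RNA was sequenced on the Ion Torrent platform in 1 library of pregnant and 1 of cyclic day 14 ewes, each pooled from 4 ewes. The authors processed reads of 15 to 55 bp in CLC Genomics Workbench, by its workflow for small RNA (version not given in the sources). They matched the reads to the Bos taurus entries of miRBase (release 19) and summed them per mature sequence, with a minimum of 10 sequence copies. The deposited values are whole-number read counts without normalization, given as a total, as exact matches and as reads that fit a single precursor. No listed total was under 10. Totals of reads came from the authors' annotation reports. A second deposited table held the same counts for these 81 miRNAs and 6 columns of a library that matches no sample used here, which were not used. Columns of the authors' own differences and fold changes were not used either.

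Each count was divided by the total of listed mature miRNA counts (2809 and 7921). Ratios carry an exact conditional binomial and shares an exact Clopper-Pearson 95% interval (Python 3.11.15, NumPy 2.4.6, SciPy 1.17.1, drawn with matplotlib 3.10.9). In ratios of single miRNAs an unlisted count entered as 9 copies, its upper limit, and sums over lists are given with it at 0 and at 9. The interval code was tested on simulated data. Alternatives were all reads, edgeR's TMM (4.0.16) and DESeq2's size factors (1.42.0, R 4.3.3) over the 53 miRNAs in both libraries, totals without the 3 most abundant miRNAs (let-7a, let-7b and mir-21) or the family, exact or assignable reads only, minimums of 20 and 50 counts, no 2-fold criterion, and other sets of members. Scalings over miRNAs with more than 28 cyclic counts, and shared reads counted once, were added after the data were seen. The named miRNAs were the members, their cluster partners, miR-103 and miR-107, and the 3 closest in ratio. mir-125b, mir-223, mir-342, mir-200a, mir-200b and mir-200c were named after their values were seen. Members and lists were chosen with earlier results of these data known.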

Additional observations from a re-analysis of the deposited data

How the results depend on the processing

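The ratio of mir-16a, mir-16b and mir-424 together, 0.841 with total mature miRNA counts, was below 1 under every alternative tried, though not all count the same members. It was 0.236 with all reads of the library. With exact matches only it was 0.567, a value of mir-424 alone, since mir-16a and mir-16b had 0 such reads. Under the others it was 0.720 to 0.868. Among these were 0.868 and 0.756 with mir-15a and mir-15b added at 9 and at 0 copies, the latter with an interval below 1 (0.614 to 0.925). With shared reads of mir-16a and mir-16b counted once, added after the data were seen, it was 0.830 (0.639 to 1.07). By DESeq2's size factors, whose miRNAs the minimum of 10 copies selects, mir-16b (0.730, 0.532 to 0.990) and mir-424 (0.548, 0.291 to 0.971) had intervals below 1. The number of members called was 0 under each alternative other than all reads, where it was 4. The share of the pregnant library, 4.34%, was 2.92% of the exact matches, from 9 reads of mir-424, and 0.102% of all reads. That of the cyclic library, 5.74%, was 6.06% (4.48 to 7.97%) of the exact matches, from mir-424 and mir-15b, and 0.480% of all reads. The odds ratio of mir-16a against mir-16b, 1.07 by totals that shared reads pull toward 1, was 1.90 in assignable reads. The latter alternative was chosen after the data were seen. The cause of these moves was not tested, other than for all reads, whose size relative to the mature miRNA counts differs between the libraries. Ratios by exact matches could not be given for mir-16a, mir-16b and mir-15a, which had 0 such reads. No paired analysis was possible because each condition has 1 pooled library and no replicates. Precision is lowest in the pregnant library, which has more reads (119605 against 94735) but fewer mature miRNA counts (2809 against 7921), and where 2 of 5 members fell under 10 copies.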
